A study of Arabidopsis thaliana with 8 samples.

Results

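COR15A, COR15B and COR47 are cold-regulated genes of Arabidopsis thaliana that are also transcribed in plants not exposed to cold. All probe sets annotated to exactly 1 gene with 1 of these symbols were taken, which gave 3 probe sets for the 3 genes out of 22810 probe sets on the array and 13356 genes with a single-gene probe set. COR15A (AT2G42540, probe set 263497_at) and COR15B (AT2G42530, 263495_at) are direct neighbours on chromosome 2 in the TAIR10.1 assembly. COR47 (AT1G20440, 259570_at) lies on chromosome 1 beside ERD10, a closely related dehydrin gene that has no value here.

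RNA came from whole shoots of plants labelled Col-1 that had 4 rosette leaves. They stood on agar in normal atmosphere with 16 h of light a day and were collected 6 h after the day began. There was 1 ATH1 array, labelled with biotin, for each of 7 spike mixes, which are sets of added RNAs, and 1 for a reference mix. All 8 arrays therefore share tissue, stage and time of harvest and differ by label only in the added mix. No cold, drought or hormone treatment is named, and neither a growth temperature nor the amounts of added RNA are given in the sources used here. The labels do not say whether the arrays share an RNA extract, so the spread between arrays may be technical. In whole shoots, fewer cells of a type and less RNA per cell cannot be told apart.

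The COR genes are the downstream end of the cold acclimation pathway. Transcription factors of the CBF/DREB1 family are induced by low temperature, bind the CRT/DRE element in COR promoters and switch these genes on, and the circadian clock gates that pathway to the daytime. COR15A and COR15B encode small late embryogenesis abundant proteins that are imported into the chloroplast stroma and protect chloroplast membranes during freezing, while COR47 encodes an acidic dehydrin, a hydrophilic protein that protects other proteins and membranes when water is lost.

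All 3 genes gave strong signals in these daytime shoots on every array. A signal is the linear MAS5 intensity of a probe set, scaled so that the 2% trimmed mean of each array is 100. Between 4.51% and 5.23% of all probe sets were brighter than COR15A, depending on the array. For COR15B the share ran from 4.23% to 6.18%, and for COR47 from 2.57% to 3.25%. Brightness also depends on the probes: the 2 probe sets of SIZ1, which encodes a SUMO ligase that acts on the cold regulator ICE1, had mean signals of 145 and 30.3. The order of the 3 genes by signal is therefore not an order of transcript number.

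The chloroplast protein gene COR15A had a nearly level signal. It measured 608.8, 548.8, 606.1, 572.2, 561.7, 567.0 and 526.7 in mixes 1 to 7 and 542.7 on the reference array. Mixes 1 and 3 were the highest and mix 7 the lowest, with 1.16-fold between the extremes. The mean was 567 ± 29.0 (SD, n = 8 arrays), a coefficient of variation of 5.11%.

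Its neighbour COR15B varied more. It measured 667.0, 576.7, 553.1, 487.6, 501.2, 446.9 and 608.0 in mixes 1 to 7 and 498.4 on the reference array. Mix 1 was the highest, followed by mix 7, and mix 6 was the lowest, with 1.49-fold between the extremes. The mean was 542 ± 72.6 (SD, n = 8 arrays), a coefficient of variation of 13.4%.

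The dehydrin gene COR47 lay between them in spread. It measured 965.1, 847.4, 788.6, 859.2, 944.3, 817.8 and 859.7 in mixes 1 to 7 and 914.8 on the reference array. Mixes 1 and 5 and the reference array were the highest and mix 3 the lowest, with 1.22-fold between the extremes. The mean was 875 ± 61.5 (SD, n = 8 arrays), a coefficient of variation of 7.03%. As deposited, mix 1 gave the highest signal for all 3 genes, but the lowest came from a different array for each. After quantile normalization COR15A was highest in mix 3 and COR47 in mix 5. No share of other probe sets that were highest in mix 1 is given as background.

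**Figure D1:**
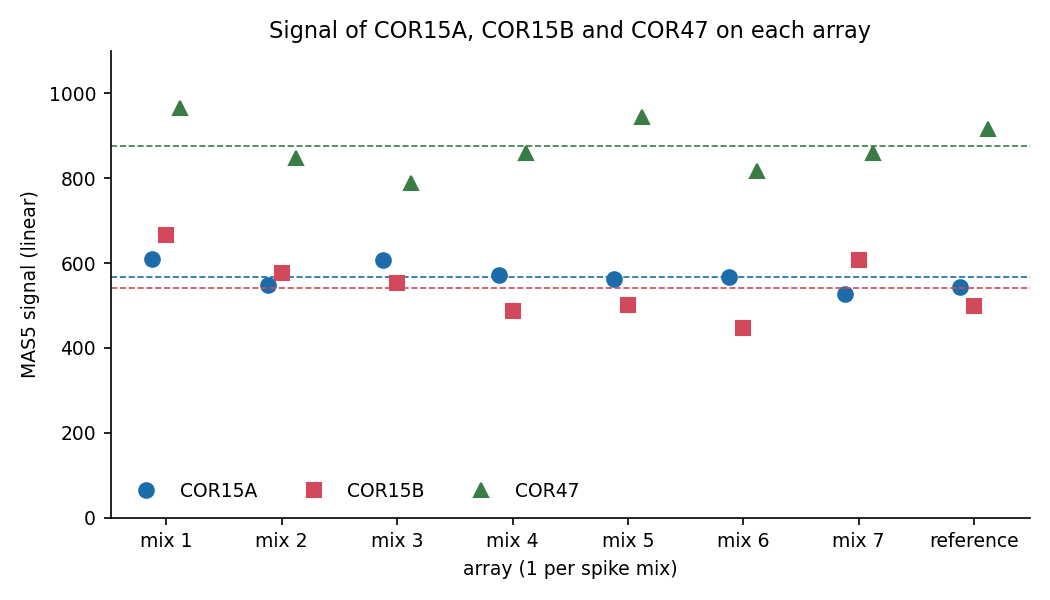
MAS5 signal (linear axis from 0) of COR15A (circles), COR15B (squares) and COR47 (triangles) on each of the 8 arrays, with dashed lines at each gene's mean of 567, 542 and 875. COR15A stays close to its line, while COR15B runs from 446.9 in mix 6 to 667.0 in mix 1.

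None of the 3 genes was 2-fold away from the reference array in any mix. Of 11352 probe sets in the upper range of signal (mean at or above the table's median of 42.5), few were at least 2-fold away in either direction: 0.176%, 0.0969%, 0.123%, 0.291%, 0.159%, 0.564% and 0.229% in mixes 1 to 7. A count of 0 of 3 is near that background and is not a result about the COR genes. With 1 array per mix there is no test of a mix against the reference, and the 7 ratios of a gene share the same reference array.

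The ratios of COR15B to its reference signal reached furthest. Its log2 ratio was 0.42 in mix 1 and 0.29 in mix 7, and the lowest was -0.16 in mix 6. COR15A had log2 ratios from -0.04 in mix 7 to 0.17 in mix 1, and COR47 from -0.21 in mix 3 to 0.08 in mix 1. COR15A was above its reference signal in 6 mixes and below it in 1, whereas COR47 was above it in 2 and below it in 5. These directions depend on the scaling of the arrays: scaling to a common median shifts all genes against the reference array by as much as -0.12 in mix 6, and COR15A then lay above its reference signal in 2 mixes and below it in 5. COR15B was above it in 5 mixes as deposited, in 4 after scaling to a common median and in 6 after quantile normalization.

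The spread of each gene over the arrays was set beside that of the 500 upper-range probe sets nearest to it in mean signal. The SD of log2 signal was 0.07 for COR15A, where the nearest probe sets had a median of 0.10 and 21.2% were narrower. For COR15B the SD was 0.19 against a median of 0.10, and 92.6% were narrower. COR47 lay in the middle over all arrays as deposited, with an SD of 0.10 against a median of 0.10 and 54.6% narrower. For COR47 that share was 36.2% after quantile normalization and 80.4% without the arrays of mixes 4, 5 and 6. COR15B was thus among the more variable genes at its brightness, and the share narrower than COR15B stayed between 84.0% and 94.8% under the 11 other settings tried. The low place of COR15A was less steady. Without the arrays of mixes 4, 5 and 6 it was wider than 64.6% of its nearest probe sets. Without mix 6 alone it was wider than 39.8%, still under the middle. Without mix 7 alone the share was 14.0%, lower than the 21.2% over all arrays.

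**Figure D2:**
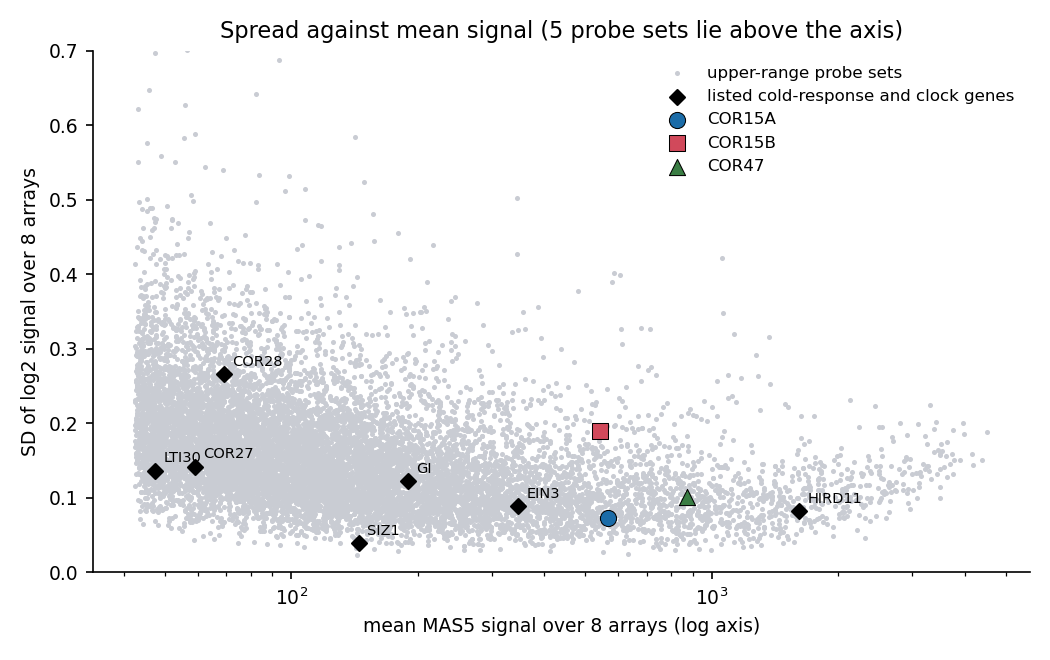
SD of log2 signal over the 8 arrays (vertical axis) against mean MAS5 signal (log axis) for 11352 upper-range probe sets in grey, with the 3 COR genes and the 7 listed genes of the cold response that fall in this range marked. COR15B, at an SD of 0.19, sits above most probe sets of its brightness, and COR15A, at 0.07, sits low in the cloud. The axis ends at 0.7, and 5 probe sets lie above it.

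The signal of COR15B followed a division among the arrays that runs through many other genes. With the 3 COR genes left out, the first principal component of the upper-range probe sets held 29.1% of the variance and had loadings of 0.57, 0.34 and 0.38 for mixes 4, 5 and 6, against -0.34, -0.40, -0.33 and -0.16 for mixes 1, 2, 3 and 7 and -0.07 for the reference array. COR15B lay between 553.1 and 667.0 on the arrays of mixes 1, 2, 3 and 7 and between 446.9 and 501.2 on those of mixes 4, 5 and 6, with no overlap. The reference array, at 498.4, fell within the lower range as deposited, and also did so after quantile normalization. After scaling to a common median it was 520, between the lower range of 430 to 495 and the upper range of 549 to 691. COR15A and COR47 overlapped between the arrays of mixes 1, 2, 3 and 7 and those of mixes 4, 5 and 6.

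The same order without overlap was seen in 9.22% of the 11352 upper-range probe sets, so COR15B is 1 of 1047 probe sets with that order, and 9.17% showed the opposite order. The order of COR15B held after scaling to a common median, where 15.1% of probe sets shared it, and after quantile normalization, where 8.91% did. The part of these array differences in the spread of COR15B was not tested further.

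Within each array the COR15 neighbours moved apart by as much as COR15B itself moved. The log2 ratio of COR15A to COR15B was -0.13, -0.07, 0.13, 0.23, 0.16, 0.34 and -0.21 in mixes 1 to 7 and 0.12 on the reference array. It was lowest in mix 7 and highest in mix 6, a 1.46-fold range, and COR15B was the brighter of the neighbours in mixes 1, 2 and 7 while COR15A was on the other 5 arrays. The mean log2 ratio was 0.07 with an SD of 0.19 (n = 8 arrays), and without mixes 4, 5 and 6 the mean was -0.03. The SD of COR15B alone was also 0.19, and 0.20 would follow from the separate spreads of both genes if they were uncorrelated. Since the genes have different probes, the mean of the ratio says nothing of their relative transcript number, and its change over the arrays shows only unequal change of the signals. Whether the probe sets share sequence was not tested.

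**Figure D3:**
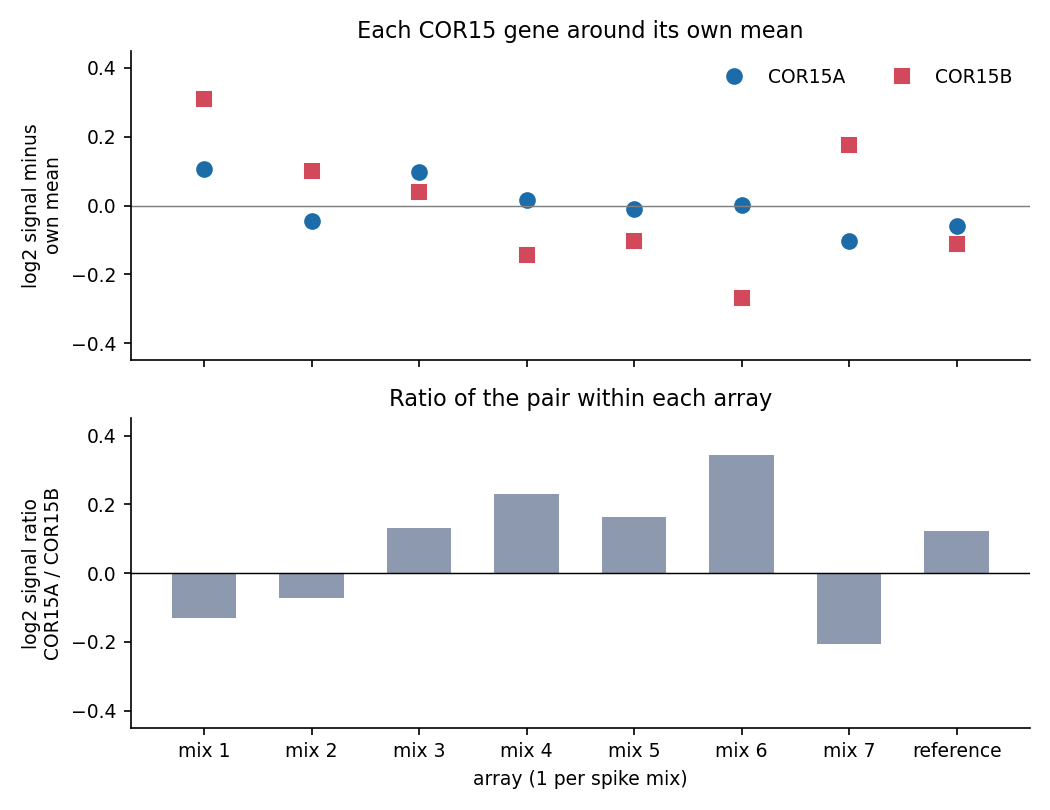
Above, log2 signal of COR15A (circles) and COR15B (squares) on each array minus the gene's own mean over the 8 arrays. Below, bars from 0 show the log2 ratio of COR15A to COR15B within each array, which runs from -0.21 in mix 7 to 0.34 in mix 6, and is below 0 in mixes 1, 2 and 7.

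The COR genes did not rise and fall together over the arrays to a degree that a test could show. COR15A and COR15B had Pearson r = 0.19 over 8 arrays (two-sided exact permutation p = 0.642, Benjamini-Hochberg adjusted over 3 relations 0.961) and Spearman rho = 0.02 (exact permutation p = 0.977, adjusted 0.977). Without mixes 1 and 3, the arrays farthest from the median of COR15A, r was -0.80, so even its sign rested on those arrays. Of 11350 other upper-range probe sets, 29.2% had a higher r with COR15A than COR15B did.

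COR15B and COR47 had r = 0.30 (exact permutation p = 0.467, adjusted 0.961) and rho = 0.38 (exact permutation p = 0.360, adjusted 0.977), and r = -0.51 without mixes 1 and 6. COR15A and COR47 had r = -0.02 (exact permutation p = 0.961, adjusted 0.961) and rho = -0.07 (exact permutation p = 0.882, adjusted 0.977), and r = -0.10 without mixes 1 and 3. Over 8 arrays that all carry daytime shoots with no named treatment, these values do not show that the genes are unrelated.

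The adjacent COR15 genes were also set beside other adjacent protein-coding genes of TAIR10.1 with 1 upper-range probe set each. Over 1392 other adjacent pairs the SD of the log2 ratio had a median of 0.21, and 37.5% had a narrower ratio than COR15B and COR15A. Among the 105 of those in which both genes had a mean signal of at least 200, a limit chosen after the COR15 values were seen, the median was 0.15 and 70.5% were narrower. Pearson r was higher than for the COR15 neighbours in 34.3% of the 1392 and in 40% of the 105. By both measures, the COR15 neighbours lay within the range of other adjacent genes.

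**Figure D4:**
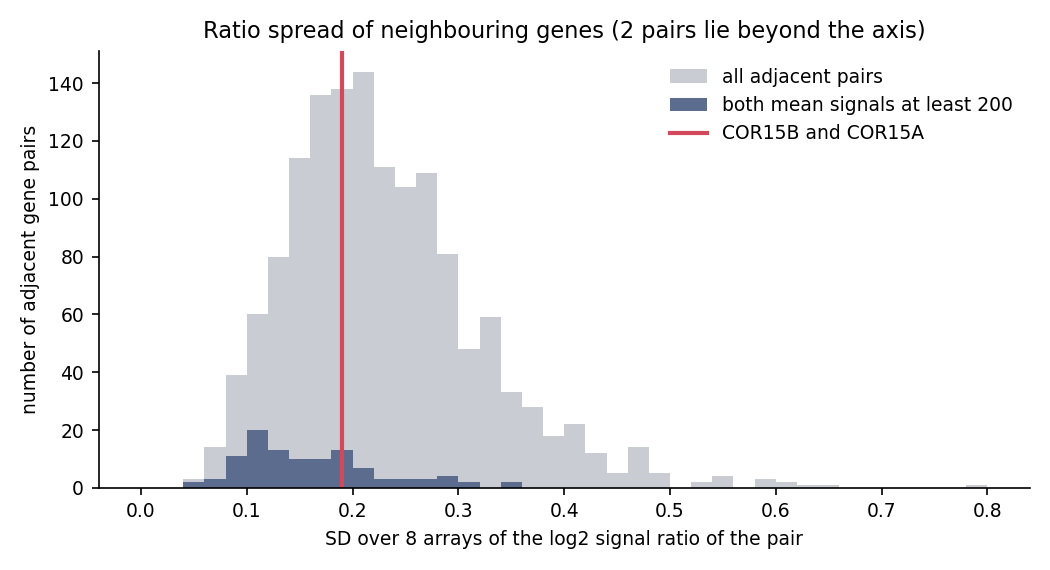
Number of adjacent gene pairs (vertical axis) by the SD over 8 arrays of the log2 signal ratio of the pair, for all pairs in grey and for those with both mean signals of at least 200 in blue. The line marks COR15B and COR15A at 0.19, near the middle of all pairs and in the upper part of the bright ones, and 2 pairs lie beyond the axis.

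Around the COR15 locus, the neighbours with a single-gene probe set were far dimmer. AT2G42520, next to COR15B, had a signal of 128 ± 12.4, and AT2G42490, 4 genes from COR15B, had 184 ± 10.2 (SD, n = 8 arrays). On the other side TBL39, a member of the trichome birefringence-like family of wall acetylation genes, had 48.8 ± 6.92. AT2G42560, between TBL39 and the COR15 genes, lay at or under 12.9 on all 8 arrays. That value is the 25th percentile of the table and is used here as the floor of signal. It is not a detection limit. AT2G42480 and AT2G42640, the next with a probe set on either side, lay at or under the floor on 6 arrays each. Next to COR47, AT1G20430 had 143 ± 9.65 and AT1G20410 had 56.0 ± 4.24, while AT1G20400, AT1G20480, AT1G20490 and AT1G20500 lay at or under the floor on all 8 arrays. These levels of different probe sets carry their own probe effects and are listed only to show which neighbours lay above the floor.

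For each COR gene, the 3 genes with the most similar profile were taken by Pearson r of log2 signal over the 8 arrays, out of 6017 single-gene probe sets with a mean at or above the table's median. COR15B had the closest companions, with 25 probe sets at r of at least 0.9, against 5 for COR15A and 4 for COR47. No such count for other probe sets is given as background. AT3G28950 came first at r = 0.98, followed by AT2G47380 at 0.97 and AT4G08460 at 0.96. Like COR15B, all 3 had mixes 1, 2, 3 and 7 above mixes 4, 5 and 6 without overlap. That order was seen in 9.22% of upper-range probe sets. The 3 genes were picked for their likeness to COR15B over these same arrays, so their sharing its order is no separate result. AT2G47380 measured 805.9 in mix 1 and 587.3 in mix 6, the same highest and lowest arrays as COR15B.

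COR15A was most like AT4G02860 (r = 0.94), AT5G12900 (r = 0.94) and AT2G14110 (r = 0.92). AT4G02860 measured 228.5 in mix 3 and 218.2 in mix 1, the arrays where COR15A was also highest. COR47 was most like AT4G02230 (r = 0.94), AT4G16190 (r = 0.93) and LYC (r = 0.92), the lycopene cyclase gene of carotenoid synthesis. LYC ran only from 378 in mix 3 to 411 in mix 1. With 8 arrays and 6017 candidates, values this high are a description of the profiles.

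Measures of RNA quality and hybridisation were set beside the COR genes. The actin, GAPDH and ubiquitin controls have probe sets at both transcript ends, and their 3'/5' ratio, averaged on the log2 scale, was lowest in mix 3 at 1.93-fold and highest on the reference array at 2.63-fold. COR47 was also lowest in mix 3, and over the 8 arrays it had r = 0.71 with this ratio (exact permutation p = 0.0507, adjusted over 6 relations 0.293) and rho = 0.83 (exact permutation p = 0.0154, adjusted 0.0923), with r = 0.56 without mix 5 and the reference array. COR15A had r = -0.63 (exact permutation p = 0.0978, adjusted 0.293) and rho = -0.52 (exact permutation p = 0.197, adjusted 0.486), with r = -0.62 without the same arrays. COR15B had r = 0.05 (exact permutation p = 0.901, adjusted 0.901) and rho = 0.12 (exact permutation p = 0.793, adjusted 0.952), with r = 0.52 without them. After scaling to a common median r with this ratio was -0.30 for COR15A, 0.14 for COR15B and 0.72 for COR47. After quantile normalization r was -0.68, 0.01 and 0.70 in the same order.

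Relative to the reference array, the 18 hybridisation controls were raised most in mix 1 (1.90-fold), then in mix 6 (1.69-fold) and mix 7 (1.46-fold). COR15B was highest in mixes 1 and 7 and lowest in mix 6, and its r with these controls was 0.43 (exact permutation p = 0.274, adjusted 0.549) with rho = 0.48 (exact permutation p = 0.243, adjusted 0.486); without mixes 1 and 6 r was 0.94. COR15A had r = 0.30 (exact permutation p = 0.464, adjusted 0.696) and rho = 0.29 (exact permutation p = 0.501, adjusted 0.751), and -0.34 without those arrays. COR47 had r = 0.07 (exact permutation p = 0.852, adjusted 0.901) and rho = 0.00 (exact permutation p = 1.0, adjusted 1.0), and -0.39 without them. None of the 6 relations passed the adjusted threshold of 0.05, and their part in the spread of the COR genes was not tested further. The signal of 25S ribosomal RNA ran from 271.6 in mix 6 to 2198 in mix 1, the lowest and highest arrays of COR15B. COR15A and COR47 were also highest in mix 1 but lowest in mixes 7 and 3. The relation of the COR genes to this signal was not tested.

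Other genes of the cold response came from a list of 74 genes: 24 regulators, 10 clock genes, 9 dehydrins and 31 cold-induced targets. Only 11 of them had a named probe set, and 7 probe sets of 7 genes lay in the upper range of signal. The CBF genes themselves and ICE1 are not analysed here. None of the 7 was 2-fold from the reference array in any mix, where 1.1% of the 11352 upper-range probe sets were so in at least 1 mix. The median log2 ratio of the 7 lay between -0.17 in mix 4 and 0.08 in mix 1, and that of all upper-range probe sets between -0.0040 and 0.0035 over the mixes.

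Among dehydrins, the gene family of COR47, HIRD11 was bright at 1616 ± 93.2 (SD, n = 8 arrays). It ran from 1509 in mix 3 to 1761 in mix 1, the same lowest and highest arrays as COR47 as deposited. HIRD11 was next highest in mix 7 at 1730, where COR47, at 859.7, lay below its mean of 875. The likeness of these profiles was not tested. LTI30, a dehydrin known for its induction by low temperature, was dim at 47.4 ± 4.49. AT2G21490 and AT4G39130 lay at or under the floor on all 8 arrays, and AT4G38410 did so on 2 arrays and reached 23.2 on others. The 5 of 9 listed dehydrin genes with a named probe set thus ran from a bright signal to values at or under the floor. These levels carry probe effects.

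The cold- and light-responsive genes COR27 and COR28, which encode small regulators that link the clock to freezing tolerance, had signals of 59.0 ± 5.74 and 69.0 ± 12.7. COR28 was highest in mix 2 at 89.8 and lowest in mix 6 at 53.2, and COR27 was highest in mix 6 at 68.1 and lowest in mix 4 at 50.0. GI, a clock gene of the later day that also acts in freezing tolerance, had 189 ± 15.9. EIN3, a transcription factor of ethylene signalling that restrains CBF genes, had 346 ± 21.7, with its highest signal, 382.8, on the reference array. The 2 probe sets of SIZ1 differed in spread as well as level, with SDs of log2 signal of 0.04 and 0.29.

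STZ, a zinc-finger repressor gene that responds to cold and drought, was below the upper range. It measured 16.8, 18.5, 25, 27.0, 20.9, 35.3 and 17.3 in mixes 1 to 7 and 14.6 on the reference array, close to the floor of 12.9. It was highest in mix 6, at a log2 ratio of 1.27, where none of COR15A, COR15B and COR47 was highest.

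**Figure D5:**
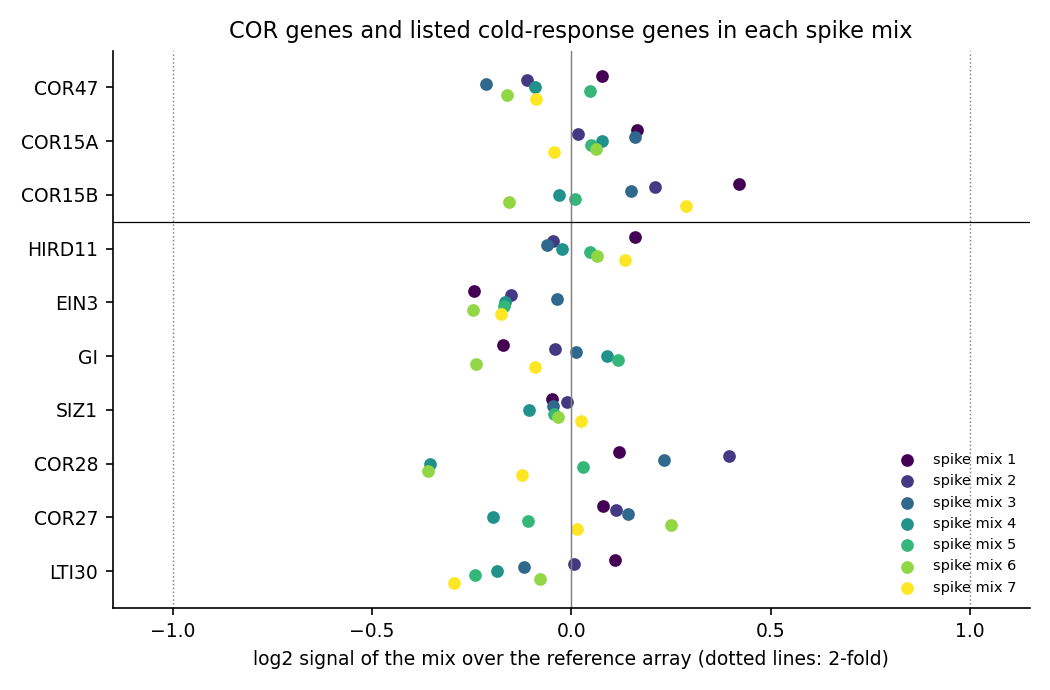
Log2 ratio of each mix to the reference array (horizontal axis, dotted lines at 2-fold) for COR47, COR15A and COR15B above the line and for the 7 listed upper-range genes of the cold response below it, with 1 point per mix. All points lie inside the 2-fold lines, and COR15B reaches furthest among the COR genes, at 0.42 in mix 1.

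The label of the tissue was checked against marker genes. The 4 green-shoot markers with a named probe set, out of 8 listed, had signals from 2416 to 4427 over the arrays. The root hair expansins EXPA7 and EXPA18 stayed between 17.2 and 35, while PYK10, a glucosidase gene that is strong in roots and seedlings, lay between 838 and 1056. The flower marker AT5G07230 was under the floor on all 8 arrays, and 0 of 5 seed storage markers had a named probe set. Over the upper-range probe sets the arrays correlated at r from 0.976 to 0.992 in 28 array pairs; these values run across genes, and genes are no replicates.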

How the data were processed

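The authors deposited a MAS5 signal intensity per probe set on a linear scale, with MAS5 named per the submitters' processing notes; its version and the scanner are not given in the sources used here. Values were used as deposited. For log2 of the gene lists, of the spreads and correlations of probe sets and of the 2-fold shares, values under 12.9 were raised to it. Gene names came from the platform's annotation and TAIR10.1: 13513 had 1 gene, of which 13436 were matched, and 503 had several. The upper range left out 64 control probe sets and those spanning at least 16-fold.

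Each mix has 1 array, so no mix has a replicate, and precision is limited by there being 8 arrays. Correlations used exact permutation over 40320 pairings. The p-values concern association over these 8 arrays only, and the labels do not say whether the arrays share an RNA extract. The named genes were the 3 members, the measured list genes, the 3 most similar genes per member and up to 3 neighbours per side with 1 single-gene probe set. Members and lists were chosen with earlier results of these data known. The comparisons with adjacent genes and with the division of the arrays were added after their values were seen. The steps were checked on simulated data. The software was scipy 1.17.1, numpy 2.4.6 and pandas 2.3.3 under Python 3.11.15, with figures from matplotlib 3.10.9.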

Additional observations from a re-analysis of the deposited data

Results flagged for a closer look

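Over the 8 arrays, 18 measures were checked for 1 array far from the other 7: the signals of the 3 COR genes, their 3 ratios and the 12 probe sets of the listed genes. In 0 of the 18 did the gap to the nearest array exceed Dixon's 95% critical share of the range for 8 values.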

How the results depend on the processing

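Of 273 values recomputed under other settings, 253 stayed on the same side of the threshold, within 1 SD or, for spreads and shares, within 1.5 times; 12 moved, and 8 correlations between members, none past the threshold under any setting, changed sign. Without a test, 10 log2 ratios of a member to its comparator also changed sign, 6 of them for COR15A, as did the mean log2 ratio of COR15A to COR15B, from 0.07 to -0.03 without mixes 4, 5 and 6. For COR15A and COR47, r turned from -0.02 to 0.35 after scaling to a common median, to 0.020 without mixes 4, 5 and 6 and to 0.0072 on linear signal. Leaving out 1 array at a time gave r from -0.53 to 0.44 for these genes, from -0.31 to 0.53 for COR15A and COR15B, and from -0.13 to 0.46 for COR15B and COR47; the lowest value of each of the last 2 ranges came without mix 1. Without the filter on mean signal, the count of listed genes past 2-fold was 1, STZ in mix 6, against 0. The mean signals moved by less than 1 SD, and the coefficients of variation and the SD of the COR15 ratio by less than 1.5 times, under every setting tried: leaving out 1 array at a time, the mean of COR15B ran from 525 to 556 and the SD of the ratio from 0.17 to 0.20. Against the mean of the other 7 arrays, COR15B had log2 ratios from -0.31 to 0.35. COR47 was wider than 36.2% of its nearest probe sets after quantile normalization and wider than 80.4% without mixes 4, 5 and 6. The other causes were not tested. No paired analysis was possible because each mix has 1 array and the groups share fewer than 2 replicate numbers.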
